A study of Mus musculus with 21 samples.

Results

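The miR-34 and miR-449 family is a set of microRNAs (miRNAs), small RNAs that pair with mRNAs mainly through a short stretch near their 5′ end, the seed, and repress them. Its 5p arms, which come from the 5′ side of the hairpin precursor, share a seed and are therefore predicted to recognise the same sites. MiR-34a, known as a transcriptional target of p53, is made from a locus of its own. MiR-34b and miR-34c are made from a common primary transcript. The miR-449 hairpins lie within *Cdc20b*, a gene of multiciliated cells. MiR-34b/c and miR-449 are best known for their part in the formation of motile cilia in airway, oviduct, and ependyma.

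The family was chosen by name, with earlier results of these data known, among them higher miR-34c-5p and miR-34b-3p in virgin *Zeb1 200M* than in virgin wild-type (WT) pituitary. Its members are all miRNAs whose name begins with miR-34a, miR-34b, miR-34c, miR-449a, miR-449b, or miR-449c, on either arm. There are 11 of them among the 1909 miRNA names counted in virgin mice and 11 among the 1841 counted in mice from a breeding trial. They comprise 2 arms of miR-34a, 4 arms of miR-34b and miR-34c, and 5 miR-449 names. Because the choice used the virgin libraries, their values are given as a description without a p value for any member, and nothing is read from them. The breeding trial libraries came from other mice and were tested.

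In *Zeb1200* knock-in mice, the sites for miR-200a/b in the 3′ UTR of *Zeb1*, a transcriptional repressor, are mutated, so that these miRNAs no longer repress it. Small RNAs were sequenced from whole pituitaries of WT, *Zeb1 200H* (heterozygous for the mutated allele), and *Zeb1 200M* (homozygous) females on a C57BL/6J background, collected at proestrus, each library from a different mouse. The virgin cohort (8 to 12 weeks old) had 3 WT, 4 *Zeb1 200H*, and 4 *Zeb1 200M* libraries, and the breeding trial cohort (28 to 36 weeks old, after housing with WT males) had 4, 3, and 3. Both cohorts drew on lines from the ES cell clones 6B6 and 3C5, and the clone behind each library is not given. Breeding lasted longer for all *Zeb1 200M* females and only some of the others. Most homozygous females of that cohort also bore no litters, and the litters of each sequenced mouse are not given. Length of breeding and pregnancy history therefore cannot be told apart from genotype in that cohort. The cohorts also differ in age, RNA input, instrument, and dictionary of miRNAs, which cannot be told apart from each other.

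Depth differed strongly between the cohorts. In the virgin cohort, WT replicates 1, 2, and 4 held 3816917, 10806313, and 9029142 counted miRNA reads, the *Zeb1 200H* libraries 8551806 to 10266419, and the *Zeb1 200M* libraries 8502878 to 10515664. In the breeding trial cohort, the WT libraries held 84093 to 191650, the *Zeb1 200H* libraries 60037 to 131324, and the *Zeb1 200M* libraries 87665 to 124190. Levels are given in CPM, the counts of a library scaled to a common total of counted miRNA reads, on which 1 count stood for 0.0925 to 0.262 CPM in virgin libraries and for 5.22 to 16.7 CPM in breeding trial libraries. Fold changes were scaled by TMM (trimmed mean of M values), which corrects for differences in composition between libraries. Virgin WT replicate 1 stood apart, with the lowest depth of its cohort and a TMM factor of 0.616 against 0.943 to 1.12 in the other virgin libraries. Levels of the miR-34 arms in virgin WT, and their virgin fold changes against WT, are therefore also given without it.

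In the mouse genome build GRCm38, the hairpins lie at 3 loci. *Mir34a* (ENSMUSG00000065493) spans 150068454 to 150068555 on the plus strand of chromosome 4, within no other annotated gene. *Mir34b* (ENSMUSG00000065492, 51103562 to 51103645) and *Mir34c* (ENSMUSG00000065587, 51103034 to 51103110) lie 451 bp apart on the minus strand of chromosome 9, opposite an intron of *Btg4*. *Mir449c* (ENSMUSG00000076146, 113035983 to 113036091) and *Mir449a* (ENSMUSG00000065575, 113037534 to 113037624) lie 1442 bp apart on the plus strand of chromosome 13, in an intron of *Cdc20b* and on its strand.

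RefSeq mature sequences (build GRCm38.p6) matched 9 of the 11 names, all but miR-34c-5p and miR-449b. The 4 matched 5p arms are shown because the seed they have in common is what defines the family, with the seed (bases 2 to 8) in capitals.
miR-34a-5p: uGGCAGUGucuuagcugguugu
miR-34b-5p: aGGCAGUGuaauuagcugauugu
miR-449a-5p: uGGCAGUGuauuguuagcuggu
miR-449c-5p: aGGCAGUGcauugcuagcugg
These 4 share the seed GGCAGUG, which no other of the 1679 mature names in the table has. The first 18 bases of these 4 differ from each other at 3 to 8 positions. How far miR-34c-5p differs from them was not compared. No other name shares the first 18 or 19 bases of any of the 9, the length over which reads were matched.

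The 3p arms of miR-34b and miR-34c are shown because they come from the same transcript as miR-34c-5p, and they carry another seed, AUCACUA, in common.
miR-34b-3p: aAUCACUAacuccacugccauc
miR-34c-3p: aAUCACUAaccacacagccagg
The 3p arm of miR-34a differs from them within the seed.
miR-34a-3p: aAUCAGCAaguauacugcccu

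The comparison of mutant with WT breeding trial mice asked how family members differ with the *Zeb1* alleles. These mice were other than the virgin mice whose values were known at the choice. MiR-34c-5p rose in both mutant genotypes, and miR-34a-5p fell in *Zeb1 200M* pituitary, so these 2 members, known to share the seed, moved in opposite directions. The edgeR quasi-likelihood F test was applied to all miRNAs that passed a filter on low counts, with Benjamini-Hochberg adjustment over all of them and a threshold of 0.05. These 2 were the only members, of 11, that passed the filter in any breeding trial comparison with all libraries in.

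MiR-34c-5p, from the miR-34b/c transcript, was at 129, 96.5, 202, and 188 CPM in WT replicates 1 to 4, from 20, 11, 17, and 36 counts. It was at 582, 366, and 366 CPM in *Zeb1 200H* replicates 1, 3, and 4, from 64, 22, and 48 counts. In *Zeb1 200M* replicates 1 to 3 it was at 502, 531, and 505 CPM, from 44, 66, and 62 counts. Every mutant library lay above every WT library, and the mutant genotypes overlapped each other. The means were 154 ± 49.6 CPM (SD, n = 4) in WT, 438 ± 125 (n = 3) in *Zeb1 200H*, and 513 ± 16.3 (n = 3) in *Zeb1 200M*. Against WT, miR-34c-5p rose 2.82-fold in *Zeb1 200M* (log2 fold change 1.50 ± 0.22, standard error (SE); edgeR adjusted p = 1.25e-05) with all 3 libraries higher. It rose 2.54-fold in *Zeb1 200H* (1.35 ± 0.26; edgeR adjusted p = 0.000625), again with all 3 libraries higher. In bulk tissue, more cells of a type that holds a miRNA and more of it per cell cannot be told apart, and the same is true of fewer cells and less RNA per cell.

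MiR-34a-5p was at 751, 711, 499, and 684 CPM in WT replicates 1 to 4, from 116, 81, 42, and 131 counts. It was at 391, 333, and 701 CPM in *Zeb1 200H* replicates 1, 3, and 4, from 43, 20, and 92 counts. In *Zeb1 200M* replicates 1 to 3 it was at 354, 515, and 423 CPM, from 31, 64, and 52 counts. On the CPM scale *Zeb1 200M* replicate 2 lay above WT replicate 3, so these groups overlapped, whereas on the TMM scale all *Zeb1 200M* libraries lay below all WT libraries. *Zeb1 200H* replicate 4 lay within the WT range, and the other *Zeb1 200H* libraries lay below it. The means were 661 ± 111 CPM (SD, n = 4) in WT, 475 ± 198 (n = 3) in *Zeb1 200H*, and 431 ± 81.1 (n = 3) in *Zeb1 200M*. Against WT, miR-34a-5p was 1.81-fold lower in *Zeb1 200M* (log2 fold change −0.86 ± 0.18, SE; edgeR adjusted p = 0.000749), with 2 of 3 libraries below all WT libraries on the CPM scale.

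In *Zeb1 200H* the log2 fold change of miR-34a-5p was −0.60 ± 0.22 (SE), and it did not pass the test (edgeR adjusted p = 0.0801). With the replicate number as a block it did (log2 fold change −0.61, edgeR adjusted p = 0.0229), and across all alternatives the adjusted p ranged from 0.00442 to 0.333. It passed without WT replicate 3 (−0.71, edgeR adjusted p = 0.00995), without *Zeb1 200H* replicate 4 (−1.03, edgeR adjusted p = 0.00442), and with no filter on low counts (−0.62, edgeR adjusted p = 0.0370).

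Read against all miRNAs, both members that were tested were called in *Zeb1 200M* against WT, where 35.9% of all 276 tested miRNAs were called. In *Zeb1 200H* against WT 1 of 2 was called, where 12% of 267 were. Between the mutant genotypes 0 of 2 was called by edgeR, where 1.09% of 274 were. DESeq2 also called 0 members there, and of all miRNAs tested by edgeR 40 had an unadjusted p under 0.05, neither member among them. The log2 fold changes of *Zeb1 200M* against *Zeb1 200H* were 0.17 ± 0.22 for miR-34c-5p (edgeR adjusted p = 0.759) and −0.24 ± 0.22 for miR-34a-5p (edgeR adjusted p = 0.688). The direction for miR-34a-5p turned without *Zeb1 200H* replicate 4 (0.20) and with the replicate number as a block (0.042), and its adjusted p over the alternatives ranged from 0.572 to 0.981. That for miR-34c-5p was 0.011 without *Zeb1 200H* replicate 4 and 0.46 without replicate 1, with an adjusted p from 0.390 to 0.992.

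**Figure D1:**
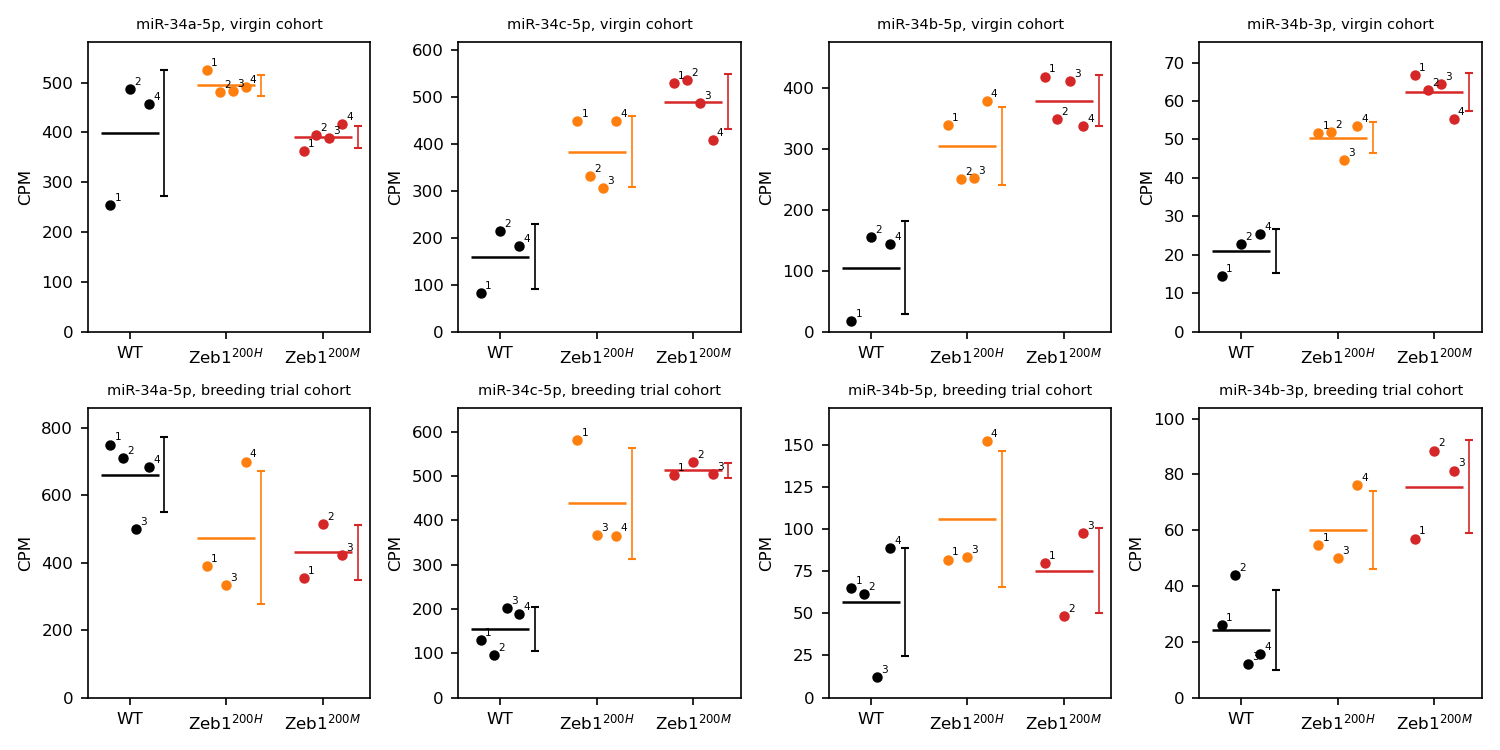
CPM of miR-34a-5p, miR-34c-5p, miR-34b-5p, and miR-34b-3p (columns) in every library, with the virgin cohort above and the breeding trial cohort below. Points are libraries labelled with their replicate number, horizontal lines are group means, and bars are the mean ± SD; in breeding trial mice miR-34c-5p was at 154, 438, and 513 CPM on average in WT, *Zeb1 200H*, and *Zeb1 200M*, and miR-34a-5p at 661, 475, and 431 CPM.

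The other miR-34 arms were too scarce for the filter in breeding trial mice. MiR-34b-3p had 4, 5, 1, and 3 counts in WT replicates 1 to 4, 6, 3, and 10 in *Zeb1 200H* replicates 1, 3, and 4, and 5, 11, and 10 in *Zeb1 200M* replicates 1 to 3. Its mean was 24.3 ± 14.3, 60.2 ± 14.0, and 75.7 ± 16.5 CPM (SD), and every mutant library lay above every WT library. Without the filter, its log2 fold change in *Zeb1 200M* was 1.39 ± 0.50 (SE; edgeR adjusted p = 0.0439), and by DESeq2 it was 1.40 ± 0.72 (adjusted p = 0.147). In *Zeb1 200H* it was 1.17 ± 0.54 without the filter (edgeR adjusted p = 0.292).

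MiR-34b-5p had 10, 7, 1, and 17 counts in WT replicates 1 to 4, 9, 5, and 20 in *Zeb1 200H* replicates 1, 3, and 4, and 7, 6, and 12 in *Zeb1 200M* replicates 1 to 3. Its means of 56.7 ± 32.2, 106 ± 40.3, and 75.3 ± 25.0 CPM (SD) in WT, *Zeb1 200H*, and *Zeb1 200M* overlapped between all genotypes. The log2 fold change in *Zeb1 200M* without the filter was −0.05 ± 0.41 (edgeR, SE) and turned to 0.05 in DESeq2, so no direction can be given there. In *Zeb1 200H* it was 0.62 ± 0.39 without the filter (edgeR adjusted p = 0.523) and 0.65 ± 0.57 by DESeq2 (adjusted p = 0.631). MiR-34c-3p had 2 to 6 counts in WT libraries, 4 to 5 in *Zeb1 200H* libraries, and 3 to 7 in *Zeb1 200M* libraries, and its groups overlapped. MiR-34a-3p had 12 counts in all, spread over 8 of the 10 libraries.

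The miR-449 members were nearly absent from the breeding trial libraries. MiR-449a-5p had 1 count, in *Zeb1 200H* replicate 4, and miR-449c-5p had 0 in all 10 libraries, which allows a level of up to 2.54 CPM over the cohort. MiR-449a-3p, miR-449b, and miR-449c-3p had 0 counts in all 21 libraries, which in the deeper virgin cohort allows up to 0.0297 CPM. Such limits, and the intervals of shares given here, cover counting error only, since reads were not reported to be collapsed to molecules. Of the 11 members, 8 had a count in virgin libraries and 7 in breeding trial libraries, 5 of them in every breeding trial library.

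In virgin mice, used to choose the family, miR-34a-5p was its most abundant member in WT and ranked 159 of 1909 by mean CPM there. MiR-34c-5p followed at rank 231, miR-34b-5p at 262, miR-34b-3p at 378, and miR-34c-3p at 395. MiR-34a-3p (499), miR-449a-5p (520), and miR-449c-5p (660) came last among members with counts. In WT, the spread of miR-34c-5p (160 ± 69.7 CPM, SD, n = 3) and miR-34b-5p (105 ± 76.3) overlapped, as did that of miR-34b-3p (20.9 ± 5.74) and miR-34c-3p (17.5 ± 1.00). These overlaps rested on WT replicate 1. Without it (n = 2), the levels were 199 ± 22.2 CPM for miR-34c-5p and 149 ± 8.17 CPM for miR-34b-5p, and 24.1 ± 1.77 CPM for miR-34b-3p and 17.0 ± 0.948 CPM for miR-34c-3p, with no overlap within either pair.

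MiR-34c-5p was at 81.2, 215, and 183 CPM in virgin WT (replicates 1, 2, and 4 in this order throughout), at 448, 332, 305, and 449.4 CPM in *Zeb1 200H* replicates 1 to 4, and at 530.1, 537, 487, and 408 CPM in *Zeb1 200M* replicates 1 to 4. All mutant libraries lay above all WT libraries, and the mutant genotypes overlapped. MiR-34b-5p, from the same transcript, was at 17.0, 155, and 143 CPM in WT, at 338, 250.2, 252, and 378 CPM in *Zeb1 200H*, and at 419, 349, 411, and 338 CPM in *Zeb1 200M*. WT replicate 1 was far below the other WT libraries for this arm, and the mutant libraries again lay above all of them.

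MiR-34b-3p was at 14.4, 22.9, and 25.4 CPM in virgin WT, at 51.7, 52.0, 44.6, and 53.6 CPM in *Zeb1 200H*, and at 66.7, 62.9, 64.4, and 55.4 CPM in *Zeb1 200M*. The 3 genotypes did not overlap for this arm. MiR-34c-3p was at 18.3, 16.4, and 17.7 CPM in WT, at 36.7, 42.0, 33.5, and 29.4 CPM in *Zeb1 200H*, and at 49.0, 45.3, 42.2, and 40.7 CPM in *Zeb1 200M*. Mutant libraries lay above WT libraries on the CPM scale, but on the TMM scale WT replicate 1 reached the *Zeb1 200H* range.

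MiR-34a-5p was at 254, 487, and 458 CPM in virgin WT, at 526, 481, 482, and 491 CPM in *Zeb1 200H*, and at 362, 395, 389, and 417 CPM in *Zeb1 200M*. Every *Zeb1 200M* library lay below every *Zeb1 200H* library, and both genotypes overlapped WT on the CPM scale. On the TMM scale *Zeb1 200M* lay below WT without overlap. MiR-34a-3p averaged 4.06, 6.61, and 4.81 CPM in WT, *Zeb1 200H*, and *Zeb1 200M*. Without WT replicate 1 the WT mean was 472 ± 20.5 CPM (SD, n = 2) for miR-34a-5p and 5.56 ± 0.277 CPM for miR-34a-3p, which puts WT above *Zeb1 200M* for the latter.

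As a description, the virgin log2 fold changes of *Zeb1 200M* against WT were 1.30 ± 0.21 (SE) for miR-34c-5p, 1.61 ± 0.50 for miR-34b-5p, 1.21 ± 0.15 for miR-34b-3p, and 0.93 ± 0.23 for miR-34c-3p. For miR-34a-5p and miR-34a-3p they were −0.38 ± 0.14 and −0.14 ± 0.38, which became −0.033 and 0.15 when total counts alone set the scale. *Zeb1 200H* against WT gave 1.00 ± 0.23, 1.36 ± 0.51, 0.96 ± 0.15, and 0.66 ± 0.24 for the same 4 arms of miR-34b/c, 0.02 ± 0.13 for miR-34a-5p, and 0.37 ± 0.32 for miR-34a-3p. That of miR-34a-5p turned to −0.019 with DESeq2 size factors and was 0.31 with total counts alone. *Zeb1 200M* against *Zeb1 200H* gave −0.40 ± 0.07 for miR-34a-5p, −0.52 ± 0.21 for miR-34a-3p, and 0.25 to 0.30 for the arms of miR-34b/c.

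Members called in virgin mice numbered 3 of 8 tested in *Zeb1 200M* against WT, beside 6.49% of all miRNAs. In *Zeb1 200H* against WT they numbered 2 of 7, beside 5.06%, and between the mutant genotypes 1 of 8, beside 2.22%. Nothing is read from these counts. Without WT replicate 1, the counts were 5 members in *Zeb1 200M* and 4 in *Zeb1 200H*, but those over all miRNAs also grew, from 44 to 168 and from 34 to 151. The log2 fold changes of *Zeb1 200M* against WT were then 1.14 for miR-34c-5p, 1.19 for miR-34b-5p, 1.21 for miR-34b-3p, 1.22 for miR-34c-3p, −0.43 for miR-34a-5p, and −0.38 for miR-34a-3p. Those of *Zeb1 200H* were 0.82, 0.90, 0.94, 0.93, −0.061, and 0.12 in the same order, so that of miR-34a-5p turned.

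Of the miR-449 members, which are abundant in multiciliated cells, only miR-449a-5p and miR-449c-5p were counted in the virgin libraries. MiR-449a-5p was at 1.83, 4.16, and 3.54 CPM in the WT libraries, at 4.38, 4.54, 3.27, and 5.73 CPM in *Zeb1 200H* replicates 1 to 4, and at 5.71, 7.78, 6.35, and 14.3 CPM in *Zeb1 200M* replicates 1 to 4. *Zeb1 200M* replicate 4, with 147 counts, was the highest of all, and WT and *Zeb1 200M* did not overlap. The log2 fold change of *Zeb1 200M* against WT was 1.05 ± 0.39 (SE), 0.66 without *Zeb1 200M* replicate 4, and 0.99 without WT replicate 1. Against *Zeb1 200H* it was 0.89 ± 0.30, and 0.51 without that replicate. MiR-449c-5p had 3 to 9 counts in WT libraries, 4 to 11 in *Zeb1 200H* libraries, and 4 to 29 in *Zeb1 200M* libraries, with overlap between all genotypes. The highest value was again in *Zeb1 200M* replicate 4.

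The ratio of miR-34c-5p to miR-34a-5p counts within a library needs no scaling between libraries. It sets a single arm of the miR-34b/c locus against a single arm of the miR-34a locus. In breeding trial mice, log2 of this ratio (pseudocount 1) was −2.48, −2.77, −1.26, and −1.83 in WT replicates 1 to 4. It was 0.56, 0.13, and −0.92 in *Zeb1 200H* replicates 1, 3, and 4, and 0.49, 0.04, and 0.25 in *Zeb1 200M* replicates 1 to 3. In every WT library miR-34a-5p was thus the more abundant, whereas every mutant library except *Zeb1 200H* replicate 4 held more miR-34c-5p. No mutant library overlapped WT, and *Zeb1 200H* spanned the *Zeb1 200M* range.

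The mean log2 ratio was higher than in WT by 2.35 in *Zeb1 200M* (5.09-fold) and by 2.01 in *Zeb1 200H* (4.02-fold). A two-sided exact permutation test gave p = 0.0571 for each, the smallest p that 4 against 3 libraries allow (0.0857 adjusted over 3 pairs of genotypes), so this test cannot pass the threshold with these group sizes. *Zeb1 200M* and *Zeb1 200H* differed by 0.34, less than the spread between *Zeb1 200H* libraries (exact permutation p = 0.7, adjusted p = 0.7, smallest possible p = 0.1). Without *Zeb1 200H* replicate 4 that difference was −0.085. In virgin mice the mean log2 ratio was −1.38 in WT (−1.25 without replicate 1), −0.39 in *Zeb1 200H*, and 0.32 in *Zeb1 200M*, described without a test.

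**Figure D2:**
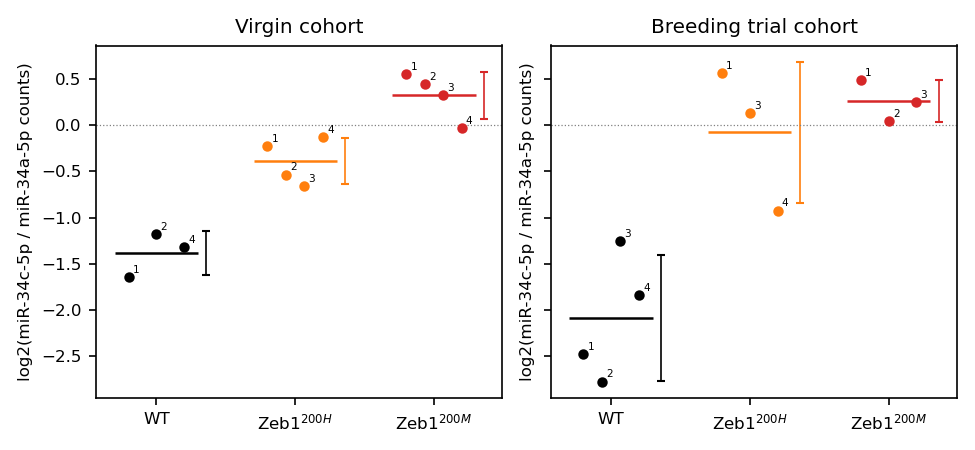
Log2 ratio of miR-34c-5p to miR-34a-5p counts (pseudocount 1) in every library of the virgin (left) and breeding trial (right) cohorts. Points are libraries labelled with their replicate number, horizontal lines are group means, bars are the mean ± SD, and the dotted line marks equal counts; breeding trial WT libraries lie between −2.77 and −1.26, below all mutant libraries.

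Summed over the 5p arms, which are known to share the seed, the family made up a small share of miRNA reads in breeding trial mice, on average 0.0872% in WT, 0.102% in *Zeb1 200H*, and 0.102% in *Zeb1 200M*. The sum was 872 ± 113 CPM (SD, n = 4) in WT, 1021 ± 223 (n = 3) in *Zeb1 200H*, and 1019 ± 80.1 (n = 3) in *Zeb1 200M*. On this scale *Zeb1 200M* exceeded WT by more than the SD of either group, though their ranges overlapped (713 to 960.1 CPM in WT, 935 to 1095 CPM in *Zeb1 200M*). On the TMM scale the sums were 951, 988, and 954 CPM, which differed by less than the spread between libraries. The composition of the sum differed more. MiR-34a-5p made up 75.6% of it in WT, 45.6% in *Zeb1 200H*, and 42.0% in *Zeb1 200M* on average, and miR-34c-5p made up 18.2%, 43.9%, and 50.5%. MiR-34b-5p made up 6.21%, 10.3%, and 7.49%.

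In virgin mice the 5p sum was 668 ± 273 CPM (SD, n = 3) in WT, 824 ± 51.0 (n = 2) without WT replicate 1, 1189 ± 153 (n = 4) in *Zeb1 200H*, and 1270 ± 61.3 (n = 4) in *Zeb1 200M*. The share of miR-34a-5p in it was 62.1% in WT (57.3% without replicate 1), 42.0% in *Zeb1 200H*, and 30.9% in *Zeb1 200M*. MiR-34b-5p, a minor part in breeding trial mice, made up 13.6% in WT (18.0% without replicate 1), 25.5% in *Zeb1 200H*, and 29.8% in *Zeb1 200M*. MiR-449a-5p made up 0.483%, 0.376%, and 0.685%.

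**Figure D3:**
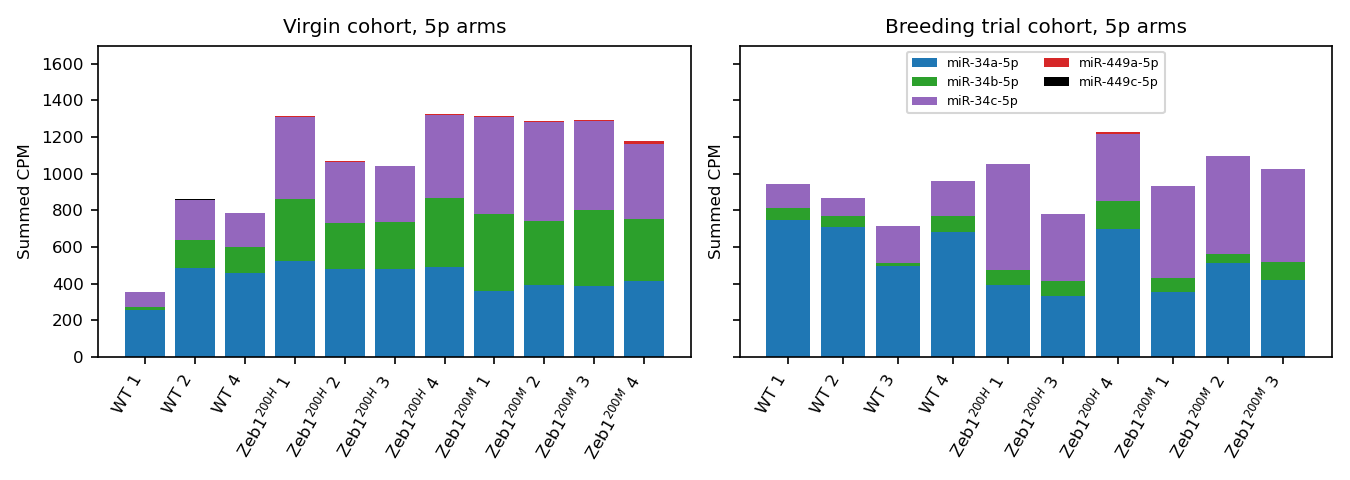
Summed CPM of the 5p arms of the family in every library of the virgin (left) and breeding trial (right) cohorts, stacked by member from 0. Bars are libraries named by genotype and replicate; miR-34a-5p made up 75.6% of the sum in breeding trial WT libraries and 42.0% in *Zeb1 200M* libraries on average.

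Each hairpin can give a miRNA from either arm, and the 5p arm prevailed for miR-34a, at 98.4% to 99.6% of its reads in virgin libraries. For miR-34b the 5p share was 82.8% to 87.6% in 10 virgin libraries. WT replicate 1 stood apart with 54.2% (65 5p and 55 3p reads, exact 95% confidence interval 44.8% to 63.3%). For miR-34c the 5p share was 88.8% to 93.9% in the other virgin libraries and 81.6% in WT replicate 1 (exact 95% interval 77.3% to 85.3%). Arm shares of the remaining virgin WT libraries thus lay within the range of the mutants.

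In breeding trial mice, pooled over libraries, the 5p arm of miR-34b took 72.9% of reads in WT, 64.2% in *Zeb1 200H*, and 49.0% in *Zeb1 200M* (25 5p and 26 3p reads). That of miR-34c took 85.7%, 91.2%, and 92.5%. By library the 5p share of miR-34b was 66.2 ± 15.3% (SD) in WT (50 to 85%), 63.1 ± 3.37% in *Zeb1 200H* (60 to 66.7%), and 49.4 ± 12.4% in *Zeb1 200M* (35.3 to 58.3%). WT and *Zeb1 200M* libraries overlapped, the pooled WT value was raised by replicate 4 (85%), and single intervals were wide (27.7 to 84.8% in WT replicate 2). The 5p share of miR-34b was lower in most libraries of this cohort than in most virgin libraries. The part of the shorter dictionary match, age, and library preparation in that was not tested.

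An interaction of cohort and genotype was fitted in edgeR over 566 miRNAs. In *Zeb1 200M* against WT it called 0 miRNAs, with 44 at an unadjusted p under 0.05, and in *Zeb1 200H* against WT it also called 0, with 49. No other tool was run for it. Because it sets breeding trial values against the virgin values that chose the family, no member value is given from it.

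Among 153 other miRNAs with a mean of at least 50 counts in each cohort, those with the profile most like miR-34c-5p over the 21 libraries were miR-140-5p, miR-381-3p, miR-330-5p, miR-384-5p, and miR-338-3p. After subtraction of each cohort's mean, Pearson's r was 0.827, 0.827, 0.800, 0.794, and 0.786. After subtraction of each group's mean instead, r was −0.18, 0.04, −0.21, −0.37, and 0.17, all below the first values, which were the ones that chose these miRNAs. For miR-34a-5p they were miR-96-5p, miR-141-3p, miR-205-5p, miR-484, and miR-429-3p, with r of 0.715, 0.692, 0.681, 0.678, and 0.677. Within groups r was 0.60, 0.25, 0.54, 0.06, and 0.23. MiR-34a-5p and miR-34c-5p had r of −0.68 with each other, and −0.15 within groups. These correlations are descriptions that share libraries and genotype differences.

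Counts of called miRNAs in the lists that follow are to be read beside the shares of all miRNAs called in the same comparisons, which in *Zeb1 200M* against WT, *Zeb1 200H* against WT, and between the mutants were 35.9%, 12%, and 1.09% in breeding trial and 6.49%, 5.06%, and 2.22% in virgin mice.

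Of 9 miRNAs linked to p53 in the literature other than miR-34, 8 were found in both cohorts (miR-107-3p was not). In breeding trial mice 2 of 6 tested rose in *Zeb1 200M* against WT, a share near the 35.9% over all miRNAs, namely miR-143-3p (log2 fold change 0.39 ± 0.12, SE; edgeR adjusted p = 0.0169) and miR-145a-5p (0.33 ± 0.11; edgeR adjusted p = 0.0231), both also markers of vessels. Their median log2 fold change was −0.04, beside 0.00 over all miRNAs tested. In *Zeb1 200H* against WT and between the mutants 0 of 6 were called by edgeR, with 0 and 1 at an unadjusted p under 0.05. The most abundant, miR-16-5p, was at 13210, 15229, and 14088 CPM on average in WT, *Zeb1 200H*, and *Zeb1 200M*. In virgin mice 1 of 8 was called in *Zeb1 200M* against WT (miR-145a-5p, 0.57, higher) and 0 of 8 in the other comparisons, with 3 (*Zeb1 200H* against WT) and 1 (between the mutants) at an unadjusted p under 0.05.

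Markers of other cells that a pituitary dissection could hold were followed in the same libraries. Of 8 markers of brain and neurons, all were found and none was at 0 in either cohort. Their summed level was 11459, 10874, 9799, and 12017 CPM in breeding trial WT replicates 1 to 4, 17199, 13725, and 17247 CPM in *Zeb1 200H* replicates 1, 3, and 4, and 22324, 21886, and 22238 CPM in *Zeb1 200M* replicates 1 to 3. The 3 genotypes did not overlap on the CPM scale, but on the TMM scale WT replicate 4 (13514.5) lay above *Zeb1 200H* replicate 3 (13310.6). In *Zeb1 200M* against WT 3 of 7 tested rose, beside 35.9% of all miRNAs called, namely miR-124-3p (log2 fold change 2.48), miR-9-5p (0.89), and miR-137-3p (0.44), with a median of 0.38 over the list. In *Zeb1 200H* against WT 1 of 7 rose, miR-124-3p (1.64), and between the mutants also 1 of 7, the same miRNA (0.85). The most abundant by the mean over all libraries of a cohort was miR-153-3p, but miR-124-3p was higher in breeding trial *Zeb1 200M* (8004 against 4981 CPM) and *Zeb1 200H* (4278 against 4257 CPM), and in virgin *Zeb1 200M* its first form was (4942 against 4379 CPM).

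In virgin mice the brain markers summed to 6382, 8856, and 9309 CPM in WT replicates 1, 2, and 4. In *Zeb1 200H* libraries the sum lay between 12870 and 14087 CPM. In *Zeb1 200M* libraries it lay between 13712 and 17641 CPM. There, 2 of 9 tested (both forms of miR-124-3p) were called, and higher, in each of the 3 comparisons. Whether cells that hold these markers contribute to the difference in miR-34b/c was not tested.

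Of 6 markers of pituitary endocrine cells none was at 0, and miR-7a-5p was the most abundant by the mean over all libraries of a cohort, though in breeding trial WT miR-375-3p was higher (127759 against 122138 CPM). All 6 were tested, and their sum made up 339452, 282166, and 258535 CPM on average in breeding trial WT, *Zeb1 200H*, and *Zeb1 200M*. There, 5 of 6 fell in *Zeb1 200M* against WT, 4 of 6 in *Zeb1 200H* against WT, and 1 of 6 between the mutants. Against WT these included miR-141-3p, miR-200a-3p, and miR-200b-3p, whose transcription Zeb1 is known to repress. The others were miR-375-3p (−0.62 in *Zeb1 200M* and −0.59 in *Zeb1 200H*) and, in *Zeb1 200M*, miR-7a-5p (−0.45), and between the mutants it was miR-141-3p. In virgin mice miR-141-3p, miR-200a-3p, and miR-200b-3p were called lower in each comparison, and miR-7a-5p, miR-7b-5p, and miR-375-3p in none. Of the markers of other epithelia, with miR-205-5p the most abundant, 1 of 4 tested fell in both mutants against WT in breeding trial mice (miR-205-5p, −2.98 in *Zeb1 200M* and −3.22 in *Zeb1 200H*) and 0 between them, where 0 had an unadjusted p under 0.05. In virgin mice 2 of 5, miR-205-5p and miR-31-5p, were lower in both mutants against WT and 0 between them, where 1 had an unadjusted p under 0.05. None of these epithelial markers was at 0.

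In breeding trial *Zeb1 200M* against WT, 3 of 6 tested markers of blood cells rose (miR-142-3p, miR-144-3p, and miR-223-3p), as did 4 of 4 of vessels and 1 of 2 of oligodendrocytes (miR-338-3p, 0.45), where of all 276 miRNAs tested 99 (35.9%) were called, 56 of them higher. The single tested marker of choroid plexus, a tissue with multiciliated cells, was miR-204-5p, with a log2 fold change of 0.14 and no call. MiR-211-5p, its other marker, was at 0 in the breeding trial cohort. For these 4 lists edgeR called 0 in the other breeding trial comparisons, with 0 to 2 of a list at an unadjusted p under 0.05. In virgin mice it called 1 of 5 vessel markers (miR-145a-5p, higher in *Zeb1 200M* against WT) and 0 of 7 blood, 0 of 2 oligodendrocyte, and 0 of 1 choroid plexus markers in any comparison, with 0 to 2 of a list at an unadjusted p under 0.05.

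In breeding trial WT, *Zeb1 200H*, and *Zeb1 200M*, the summed level of the blood list was 7263, 8656, and 10270.1 CPM on average. That of the vessel list was 10307, 13561, and 15239 CPM, and that of the oligodendrocyte list 992, 1476, and 1612 CPM. The choroid plexus list summed to 2903, 2948, and 3753 CPM. On the TMM scale it summed to 3161, 2849, and 3512, with *Zeb1 200H* below WT, whereas the order of the other lists stayed. WT and *Zeb1 200M* libraries overlapped on the CPM scale for the blood list (WT up to 9233, *Zeb1 200M* from 8840). They also did for the choroid plexus list (up to 3449, from 3171), but not for the vessel and oligodendrocyte lists. The most abundant miRNAs of these lists, in the order given, were miR-451a, miR-126a-3p, miR-338-3p, and miR-204-5p. MiR-486a-5p of the blood list was not found in either dictionary. The part of these cells in the differences of miR-34 members was not tested.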

How the data were processed

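Small RNAs of 21 pituitary libraries were analysed from the deposited tables, whose values used here are raw counts of reads per miRNA and library. The authors trimmed adapters with cutadapt, filtered reads on quality, and matched the first 19 nt (virgin cohort, TargetScanMouse) or 18 nt (breeding trial cohort, miRBase) to a dictionary of miRNAs. Reads of size standards and spike-ins were removed, and no collapse to molecules is stated. The tables also hold the authors' scaled values, fold changes, and p values (DESeq2 1.38.3 in the virgin cohort), which were not used.

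Genotypes were compared pairwise inside a cohort by the quasi-likelihood F test of edgeR 4.0.16 in R 4.3.3, after TMM scaling. MiRNAs entered the test with a count of 10 or more in enough libraries and a total of at least 15, as set by the filter of edgeR. Benjamini-Hochberg adjustment covered every miRNA tested, and an adjusted p below 0.05 was called. The F test was checked on simulated data. SE was derived from the F statistic.

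The ratio of miR-34c-5p to miR-34a-5p was compared by exact permutation over libraries, with a pseudocount of 1. Arm shares have exact (Clopper-Pearson) intervals, and the limit for a count of 0 is 3 counts of the total. Hairpin positions and host genes come from the annotation of GRCm38.

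Named are all members, the 5 miRNAs most like miR-34c-5p and miR-34a-5p, and the miRNAs of 8 lists (p53-linked, pituitary endocrine, brain and neurons, oligodendrocytes, choroid plexus, blood cells, vessels, other epithelia). Members and lists were chosen with earlier results of these data known. Unfiltered values of scarce members were named after they were seen.

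Other settings tried were the Wald test of DESeq2 1.42.0, scaling by size factors, no filter, a common fit of the 3 genotypes, the replicate number as a block, ratio pseudocounts of 0.5 and 5, CPM scaled by TMM, and leaving out each library. Chosen after seeing the data were total counts alone as the scale, group levels and arm shares without virgin WT replicate 1 or virgin *Zeb1 200M* replicate 4, and TMM-scaled sums. After removal of genotype means, breeding trial *Zeb1 200H* and WT libraries of the same number correlated at 0.112, 0.100, and 0.190 in all 3 pairs, so the blocked value is given for that comparison. In each other comparison at least 1 pair correlated negatively.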

Additional observations from a re-analysis of the deposited data

Results flagged for a closer look

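In breeding trial WT replicate 2, the summed level of the p53-linked list was 19625 CPM, set apart below the other WT libraries, which reached up to 21905 CPM. Its gap to the nearest of them was 0.925 of the whole range of the group. On the TMM scale it was at 20654 and the others at 23679, 23873, and 24635, a smaller gap relative to the range. Of the 61 groups of 4 libraries checked in this way it was the only such case, and nothing is read from it. How often chance alone gives such a gap was not tested. Groups of 3 libraries were not checked. The cause was not tested.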

How the results depend on the processing

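Breeding trial calls of miR-34c-5p against WT in both mutants and of miR-34a-5p in *Zeb1 200M* passed the test with the same direction under every alternative run. Log2 fold changes ranged from 1.36 to 1.73, 1.07 to 1.52, and −1.02 to −0.62. With the filter on all libraries, 2 of 11 members were tested in this cohort. Of the others, 3 had 0 counts in all 21 libraries of both cohorts. Members called in *Zeb1 200M* against WT (2) numbered 2 to 3 with each library left out (3 without *Zeb1 200M* replicate 1) and 3 with no filter. The added call without *Zeb1 200M* replicate 1 is of a member that did not pass the filter with all libraries in. Nothing is read from it.

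miRNAs called in virgin *Zeb1 200M* against WT (44) numbered 86 with DESeq2, 90 in a common fit, 20 with the replicate block, and 25 to 168 with each library left out (168 without WT replicate 1). Members called (3) numbered 5 in a common fit, 0 with the replicate block, and 2 to 5 with each library left out (5 without WT replicate 1). In virgin *Zeb1 200H* against WT, miRNAs called (34) numbered 66, 67, 18, and 21 to 151 (151 without WT replicate 1) in that order. Members called there (2) numbered 1 with size factors, 0 with the block, and 1 to 4 with each library left out (4 without WT replicate 1). Between virgin mutants, a common fit called 5 miRNAs (15) and 0 members (1), and no filter gave 2 members. The block uses fewer libraries where numbers are not in both groups; otherwise the cause was not tested.

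What the replicate numbers mark is not given, so the block may not reflect a true pairing of mice. In breeding trial *Zeb1 200H* against WT, members called (1) numbered 2 with no filter and 2 with the replicate block. With each library left out they numbered 1 to 2 (2 without WT replicate 3 or *Zeb1 200H* replicate 4). The added call is miR-34a-5p, and the block changed no other member's call there. Between breeding trial mutants, miRNAs called (3) numbered 0 with the block and 3 to 5 with each library left out (5 without *Zeb1 200M* replicate 2).

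Total counts alone, chosen after seeing the data, gave a median log2 fold change of 0.34 and 0.29 in virgin and 0.24 and 0.18 in breeding trial *Zeb1 200M* and *Zeb1 200H* against WT, where TMM gave −0.0025, 0.0062, 0.0014, and 0.0041. Higher and lower calls became 39 and 19 (from 18 and 26), 21 and 21 (from 11 and 23), 84 and 26 (from 56 and 43), and 54 and 15 (from 13 and 19). The last makes 69 calls in place of 32.

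Turned directions all concern members that were not called. Virgin miR-34a-3p in *Zeb1 200M* against WT was 0.15 with total counts alone and −0.38 to 0.069 with each library left out. Virgin miR-34a-5p in *Zeb1 200H* against WT was −0.019 with size factors and −0.061 to 0.093 with each left out. Between breeding trial mutants, miR-34a-5p was 0.042 with the block and −0.39 to 0.20 with each left out, and the log2 ratio difference ranged from −0.085 to 0.66. The cause was not tested. Over all members and alternatives, 335 fold changes kept direction and call, 14 gained a call, 20 lost it, and 8 turned.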
